A study of Mus musculus with 19 samples.

Results

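The comparison described here set livers of mice given WSD with beta-glucan against livers of mice given WSD alone. Its members were chosen by the treatment label: 4 libraries labelled WSD+beta-Glucan and 5 labelled WSD, which makes 9 of the 19 libraries of the series. All came from male mice of genotype C57Bl/J6 at 24 weeks, with no allele, transgene or drug named, and beta-glucan is the only stated difference between both groups. The remaining libraries, 5 of CTRL+beta-Glucan and 5 of CTRL, entered the same model and are given only beside results on WSD. By its title the series is about oat beta-glucan, the gut microbiota and the course of fatty liver disease. What WSD and CTRL stand for, and the dose of beta-glucan, are not in the labels used here. No label ties each library to a mouse of its own: p-values here measure only how far these libraries spread, which may be technical.

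Beta-glucan of oats is a soluble fibre that mammalian enzymes do not digest and that gut bacteria can ferment. In fatty liver disease, hepatocytes store triglyceride, resident Kupffer cells are lost in part, and monocytes recruited through chemokines such as Ccl2 and its receptor Ccr2 turn into macrophages. Some of these become lipid-associated macrophages, which surround lipid-laden or dying hepatocytes and are known for Trem2, Gpnmb, Itgax, Lpl and Mmp12. Hepatocytes in such livers can lose parts of their own programme, among them bile acid import, drug metabolism and fatty acid oxidation.

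RNA was measured by sequencing of stranded mRNA libraries from whole liver. The libraries held 17253823 to 23307744 estimated reads in WSD+beta-Glucan and 17360396 to 20036539 in WSD. Levels are given as CPM, read counts brought to a common library size, when libraries are compared, and as TPM, which also accounts for transcript length, when genes are compared. The tissue label was checked with Alb, the albumin gene, which stood at 43970 to 69310 CPM in WSD+beta-Glucan and 31260 to 41570 CPM in WSD. Along the leading principal component (58.3% of the variance of log2 CPM) the WSD+beta-Glucan libraries lay at -49.0 to -23.5 and the WSD libraries at -77.2 to -54.3, while CTRL lay at 35.5 to 60.6. The third component, with 5.49%, held WSD+beta-Glucan replicates 1 and 4 apart at -24.3 and -28.1, while replicates 2 and 3 lay above 0. The 50 most abundant genes took 34.3% to 37.1% of the reads in WSD+beta-Glucan and 33.5% to 35.0% in WSD.

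In WSD+beta-Glucan livers 6 of 24 markers of lipid-associated macrophages fell with edgeR, and 0 of 24 markers of monocytes and macrophages at large passed. Other tools called more of the second list than of the first. DESeq2 called 9 and 13 lower, limma-voom 11 and 14, and edgeR on these 9 libraries alone 10 and 18. Of all 13594 tested genes these tools called 342, 366 and 411 lower. The median log2 fold changes of both lists were close, at -0.84 and -0.82. Values below 0 were found for 19 of the first 24 markers and for all 24 of the second. Among the genes that fell were the proteases Mmp12, Mmp13 and Adam8, the macrophage genes Trem2, Gpnmb, Itgax and Lpl, and the monocyte attractant Ccl2. Among those that rose were the prolactin receptor Prlr, the xenobiotic receptor Nr1i3, the cytochrome P450 gene Cyp2c38 and the bile acid importer Slc10a1. Of 13594 genes tested with edgeR, 41 fell (0.302%) and 12 rose (0.0883%) at an adjusted p under 0.05, and in 52 of these 53 the libraries of WSD+beta-Glucan and WSD did not overlap. Over all tested genes, 4.83% had every WSD+beta-Glucan library below every WSD library and 2.59% had every one above. A log2 fold change below 0, of any size, was found for 47.6% of genes, and one above 0 for 52.4%. The change was at least 2-fold for 19 of the lower and 3 of the higher genes, and the median log2 fold change over all tested genes was 0.01.

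How many genes passed depended on single libraries. Leaving out WSD+beta-Glucan replicate 1, 2 or 4, or WSD replicate 5, left 0 higher and 2 lower genes, and leaving out WSD replicate 1 or 2 left 0 and 3. Mmp12 and Lpl were the 2 genes that passed in each of the 29 settings tried besides the main fit, these omissions among them. The counts were 22 and 52 without WSD+beta-Glucan replicate 3, 7 and 26 without WSD replicate 3, and 31 and 44 without WSD replicate 4. They were 14 and 71 without CTRL+beta-Glucan replicate 1, 33 and 151 without CTRL+beta-Glucan replicate 5 and 15 and 82 without CTRL replicate 1. DESeq2 called 94 higher and 342 lower on the same 19 libraries, 52 of the 53 among them.

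**Figure D1:**
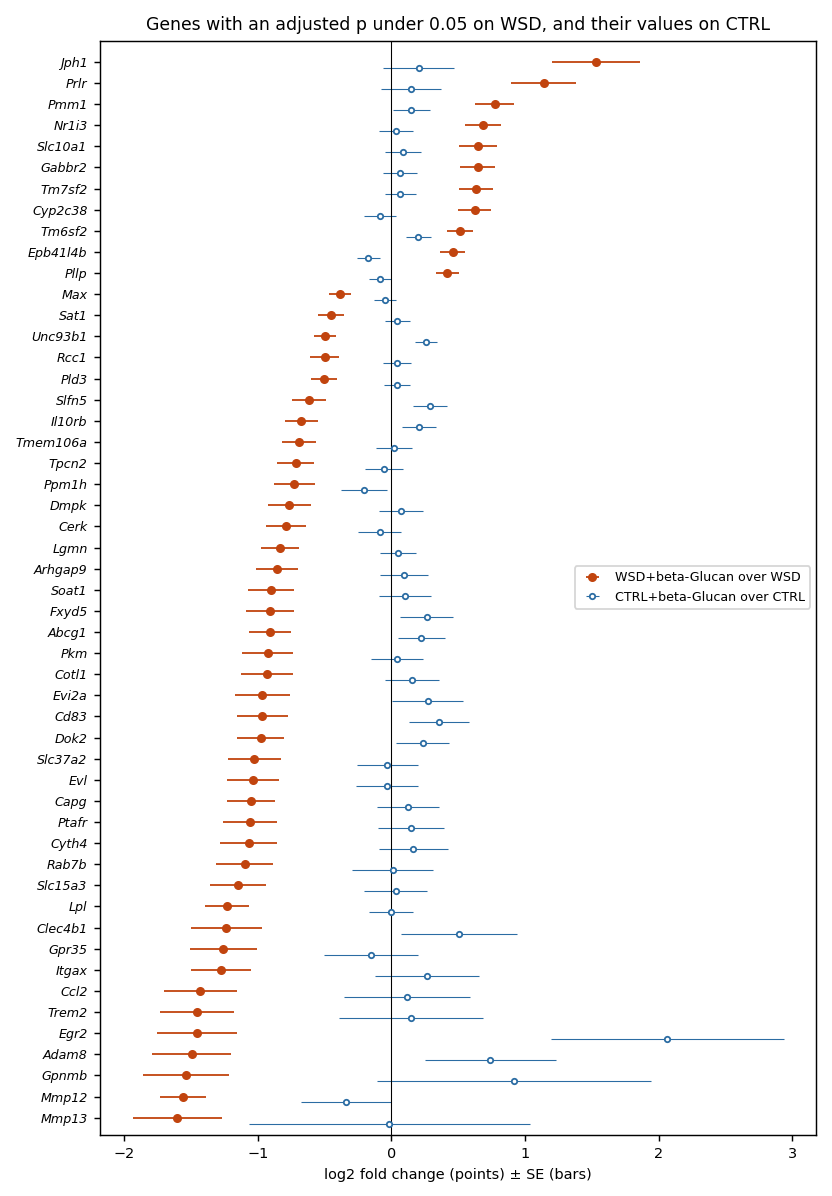
Log2 fold change (horizontal axis) of the 51 genes with an assigned symbol and an adjusted p under 0.05, for WSD+beta-Glucan over WSD (filled points) and for CTRL+beta-Glucan over CTRL (open points), with bars of 1 SE. On WSD the values run from -1.60 (Mmp13) to 1.53 (Jph1). None of these genes had an adjusted p under 0.05 on CTRL, where 1 of all 13594 tested genes (0.00736%) had one.

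Of the genes that passed the test, the matrix-degrading proteases Mmp13 and Mmp12 had the lowest fold changes. Mmp12 (ENSMUSG00000049723), the elastase of macrophages, stood at 18.5, 13.8, 15.8 and 10.3 CPM in WSD+beta-Glucan livers, against 30.1, 49.99, 45.9, 42.5 and 46.1 CPM in WSD livers. Every WSD+beta-Glucan library was below every WSD library. The means were 14.6 ± 3.46 CPM (SD, n = 4) and 42.9 ± 7.62 CPM (SD, n = 5), 2.95-fold lower, with a log2 fold change of -1.56 ± 0.17 (SE) and an edgeR adjusted p of 0.00028. In what follows, ± is the SD over libraries after a level and the SE after a log2 fold change. Mmp13, a collagenase that cuts fibrillar collagen, had 1.48, 0.849, 1.43 and 1.31 CPM in WSD+beta-Glucan, against 2.67, 4.91, 4.02, 4.40 and 3.21 CPM in WSD. It was a rare transcript, with 111 reads over the 4 WSD+beta-Glucan libraries and 445 over the 5 WSD libraries, and its groups did not overlap either (log2 fold change -1.60 ± 0.33, edgeR adjusted p = 0.0364).

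Adam8, a membrane metalloprotease of leukocytes, was at 3.02, 3.48, 4.20 and 1.85 CPM in WSD+beta-Glucan and at 7.97, 8.42, 7.49, 9.25 and 11.1 CPM in WSD. It was 2.82-fold lower (log2 fold change -1.49 ± 0.29, edgeR adjusted p = 0.0276), with the lowest value in WSD+beta-Glucan replicate 4. Of 25 tested metalloproteases, ADAM proteases and their TIMP inhibitors these 3 fell and none rose, and the median log2 fold change of the list was -0.46. Timp1, an inhibitor of metalloproteases, did not pass, at 2.30 ± 1.02 CPM in WSD+beta-Glucan and 6.37 ± 2.54 CPM in WSD (-1.47 ± 0.40, edgeR adjusted p = 0.101).

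The promoters of both Mmp genes and of the macrophage genes Trem2 and Itgax are shown because they share a match to TGANTCA. This is a loose form of TGA(G/C)TCA, the core bound by AP-1, a transcription factor that controls many genes of inflammation and matrix breakdown. Each line gives the 250 bases before a RefSeq start, 5′ to 3′ on the plus strand of GRCm38.p6, with the match in capitals. Mmp12 has 2 such starts, and the 1 shown was picked because it holds the match.
Mmp12, chr9:7347124-7347373: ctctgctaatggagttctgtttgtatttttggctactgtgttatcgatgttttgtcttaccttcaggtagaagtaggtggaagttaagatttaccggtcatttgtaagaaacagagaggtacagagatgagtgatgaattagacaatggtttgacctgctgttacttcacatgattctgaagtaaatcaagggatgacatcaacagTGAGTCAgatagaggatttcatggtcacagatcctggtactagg
Mmp13, chr9:7272264-7272513: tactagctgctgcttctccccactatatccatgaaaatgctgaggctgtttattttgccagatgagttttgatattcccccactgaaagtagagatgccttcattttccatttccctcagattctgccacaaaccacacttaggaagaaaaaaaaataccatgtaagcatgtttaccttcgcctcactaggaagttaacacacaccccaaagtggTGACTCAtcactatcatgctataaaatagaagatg
Trem2, chr17:48346151-48346400: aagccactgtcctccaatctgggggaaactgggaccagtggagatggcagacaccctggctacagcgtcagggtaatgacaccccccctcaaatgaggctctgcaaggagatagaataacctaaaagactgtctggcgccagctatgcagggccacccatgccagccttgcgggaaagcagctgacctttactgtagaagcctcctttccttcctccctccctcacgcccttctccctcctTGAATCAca
Itgax, chr7:128129300-128129549: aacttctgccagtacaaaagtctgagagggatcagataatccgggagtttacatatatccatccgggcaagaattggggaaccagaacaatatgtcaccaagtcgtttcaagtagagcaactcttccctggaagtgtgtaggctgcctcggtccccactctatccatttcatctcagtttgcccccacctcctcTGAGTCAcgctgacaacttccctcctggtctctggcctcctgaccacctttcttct
The match begins 44 bases before the start shown in Mmp12, 35 in Mmp13, 9 in Trem2 and 56 in Itgax. In Trem2 it reads TGAATCA, which the narrower AP-1 core does not include, and in the others TGAGTCA or TGACTCA.

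Of the 41 genes that fell, 29 had a promoter in the RefSeq table, and 6 of these (20.7%) held TGANTCA on either strand within that window, the others being Gpr35 and Slc37a2. Among promoters of tested genes 5.92% held it, and among all 27025 genes of the table it was 7.82%. It was also found in 2 of 9 promoters of genes that rose, those of Prlr and Nr1i3. GGAAGT, the core bound by ETS factors such as PU.1, was in 11 of the 29 promoters, against 26.7% of tested genes, and of the 4 genes shown Mmp12, Mmp13 and Itgax hold it too. The IRF motif of interferon responses, GAAA repeated after 2 bases, was in 4 of the 29, against 3.53% of tested genes. TTGCNNAA, a core of C/EBP sites, was in 5, CACGTG in 2 and the STAT core TTCNNNGAA in 0, against 9.53%, 9.63% and 7.51% of tested genes. These 6 motifs were searched on both strands, matches of different motifs may overlap, and a match is only a run of letters. A gene with several starts, such as Mmp12 or Prlr, was counted if any of them held the motif. The narrower core TGA(G/C)TCA was not counted apart.

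**Figure D2:**
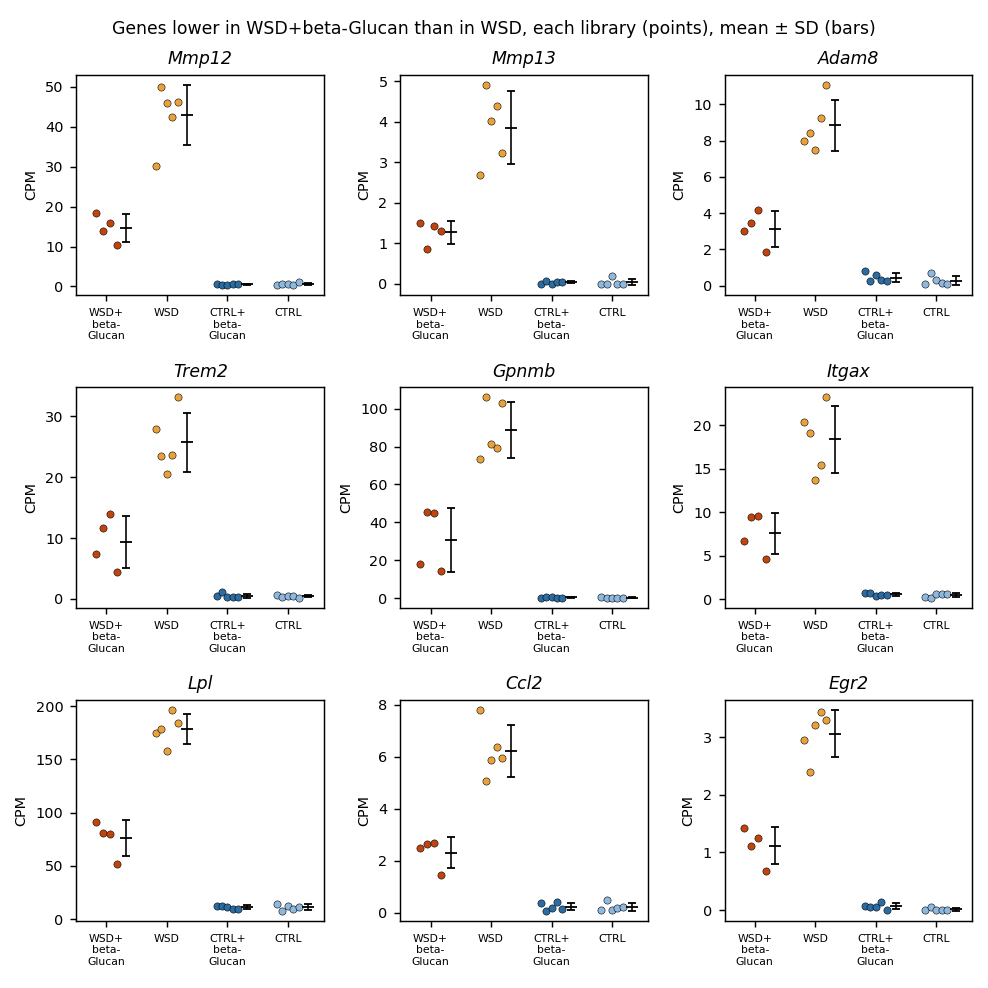
CPM of 9 genes that fell, in each library (points) with group mean ± SD (bars), in WSD+beta-Glucan, WSD, CTRL+beta-Glucan and CTRL from left to right, each panel on its own linear axis. In every panel the WSD+beta-Glucan points lie below all WSD points, and for Mmp12 the highest of them is 18.5 CPM against a lowest WSD value of 30.1 CPM.

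Markers of lipid-associated macrophages fell in 6 of 24 tested cases and rose in none, and their median was -0.84 on the log2 scale. The 6 were Mmp12, Trem2, Gpnmb, Itgax, Lpl and Capg. Of the 24, 11 had every WSD+beta-Glucan library below every WSD library, against 4.83% of all tested genes. Lpl (ENSMUSG00000015568), the lipase that releases fatty acids from lipoproteins, was at 90.8, 80.6, 80.4 and 51.8 CPM in WSD+beta-Glucan and at 175, 179, 158, 196 and 184 CPM in WSD. This is 2.35-fold lower (log2 fold change -1.23 ± 0.16, edgeR adjusted p = 0.00238). Trem2 (ENSMUSG00000023992), the lipid-sensing receptor of these cells, had 7.41, 11.7, 13.9 and 4.46 CPM in WSD+beta-Glucan, against 27.9, 23.6, 20.5, 23.7 and 33.1 CPM in WSD. Its log2 fold change was -1.46 ± 0.28 (edgeR adjusted p = 0.0276), and WSD+beta-Glucan replicates 1 and 4 held the lowest values.

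Gpnmb, a membrane glycoprotein of lysosome-rich macrophages, showed the same split within the group, with 17.8 and 14.2 CPM in WSD+beta-Glucan replicates 1 and 4 and 45.4 and 44.9 CPM in replicates 2 and 3, against 73.7, 106, 81.3, 79.2 and 103 CPM in WSD. The fold change of Gpnmb (log2 -1.53 ± 0.32, edgeR adjusted p = 0.0475) was close to that of Mmp12, with an SE nearly as wide as that of Mmp13. Itgax, which encodes the integrin chain CD11c, was at 6.70, 9.47, 9.52 and 4.59 CPM in WSD+beta-Glucan and at 20.4, 19.03, 13.7, 15.4 and 23.2 CPM in WSD (log2 fold change -1.28 ± 0.23, edgeR adjusted p = 0.0261). Capg, which caps actin filaments, averaged 12.6 ± 2.87 CPM in WSD+beta-Glucan and 26.1 ± 3.19 CPM in WSD. Per length, Lpl was the most abundant of the 6 at 32.0 ± 7.27 TPM in WSD+beta-Glucan and 83.6 ± 7.32 TPM in WSD.

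Not every marker of these cells moved with them. Spp1, osteopontin, ranged from 40.3 to 233 CPM in WSD+beta-Glucan and from 93.5 to 344 CPM in WSD, and Cd9, a tetraspanin, from 19.2 to 46.8 CPM in WSD+beta-Glucan and from 35.7 to 59.4 CPM in WSD, so both overlapped (edgeR adjusted p = 0.493 and 0.354). Cd36, a fatty acid receptor that hepatocytes also make, was at 183 ± 14.6 CPM in WSD+beta-Glucan and 159 ± 27.0 CPM in WSD. Plin2, the coat protein of lipid droplets, was at 1187 ± 75.3 CPM in WSD+beta-Glucan and 1114 ± 78.6 CPM in WSD, or 0.09 on the log2 scale. On TPM values Plin2 was at -0.05, where the median of all tested genes was -0.14. The count of 6 rested on single libraries: it was 2 without WSD+beta-Glucan replicate 1, 2 or 4 or WSD replicate 1, 2 or 5. With DESeq2 it was 9, against 342 of all 13594 tested genes.

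Monocyte and macrophage markers at large had 0 of 24 members past the threshold with edgeR, although all 24 had log2 fold changes below 0, with a median of -0.82. Of them 19 had an unadjusted p under 0.05 and 18 showed no overlap between groups. Over all genes 7.89% were lower at that unadjusted p, and 4.83% had every WSD+beta-Glucan library below every WSD library. Other tools called 13 (DESeq2), 14 (limma-voom) and 18 (edgeR on these 9 libraries alone) of the 24 lower, against 342, 366 and 411 of all 13594 genes. Ccr2, the receptor through which monocytes follow Ccl2, was at 4.56, 4.59, 4.67 and 2.61 CPM in WSD+beta-Glucan and at 8.57, 8.30, 6.27, 6.46 and 8.05 CPM in WSD (log2 fold change -0.88 ± 0.20, edgeR adjusted p = 0.0634). The summed level of the 24 markers was 594 to 740 CPM in WSD+beta-Glucan and 1070 to 1245 CPM in WSD, with no marker at 0 in either group. In a bulk sample fewer macrophages and less RNA of these genes per macrophage cannot be told apart.

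The mean log2 CPM of these 24 markers moved with the called genes, by -0.80 between groups, so each of the 41 lower genes was also set against it within its library, a comparison chosen after the data were seen and not tested. Relative to the marker mean, Trem2 was at -0.51 ± 0.57 in WSD+beta-Glucan and 0.25 ± 0.20 in WSD on the log2 scale, a difference of -0.75, still without overlap. The same held for Mmp13, Adam8, Ccl2, Lpl and the predicted gene Gm21188, 6 of 41 in all, of which Gm21188 is named after its values were seen. Relative to the marker mean, Mmp12 and Gpnmb differed by -0.76 and -0.905 with overlap between libraries. Another 31 genes, these 2 included, overlapped, and 4 (Max, Sat1, Rcc1 and Pld3) lay above, by 0.30 to 0.42. Those 4 are genes of broad expression whose own fold changes were small, from -0.39 to -0.50. The 41 genes were picked as lower in these same libraries, and the same count was not made over all tested genes. The median log2 fold change of all tested genes was 0.01, so the counts of 6, 31 and 4 have no background here.

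**Figure D3:**
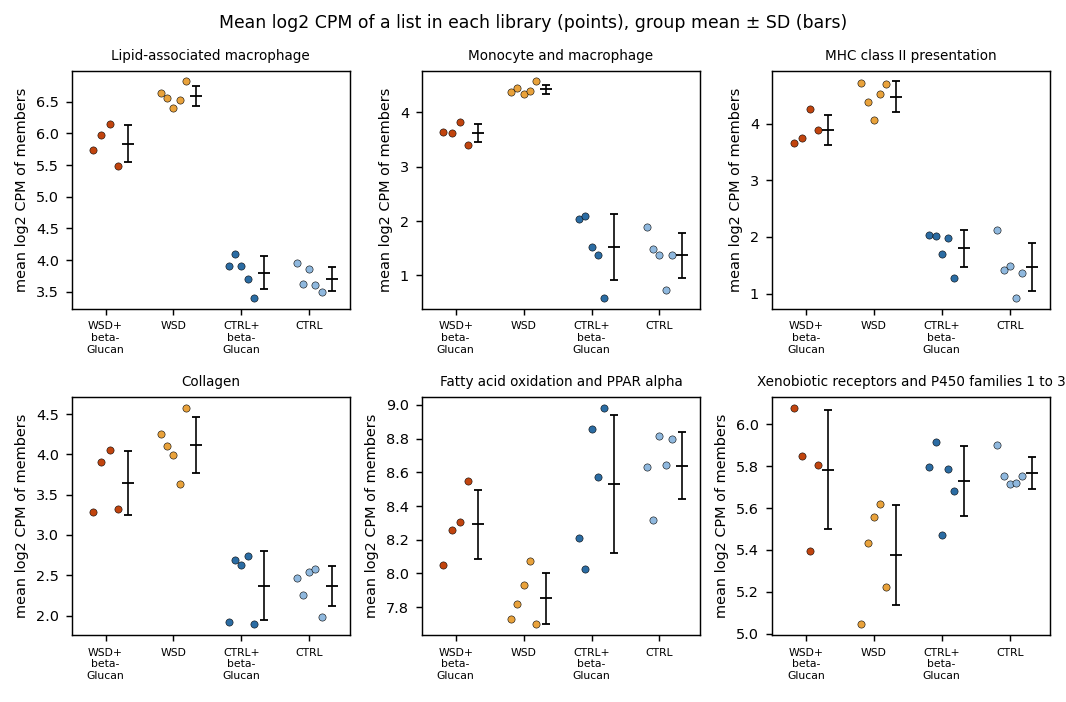
Mean log2 CPM (vertical axis) of the tested members of 6 gene lists in each library (points), with group mean ± SD (bars), for WSD+beta-Glucan, WSD, CTRL+beta-Glucan and CTRL. For monocyte and macrophage markers the WSD+beta-Glucan libraries lie between 3.40 and 3.82, below the WSD libraries at 4.34 to 4.57 and above the CTRL libraries.

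Among chemokines, cytokines and their receptors, 1 of 30 tested genes fell and none rose. Their median log2 fold change was -0.77, and 28 of 30 values were below 0. The 1 gene was Ccl2, at 2.47, 2.63, 2.68 and 1.43 CPM in WSD+beta-Glucan and 7.79, 5.08, 5.88, 6.36 and 5.94 CPM in WSD. Its log2 fold change was -1.43 ± 0.27 (edgeR adjusted p = 0.0261), from 203 reads over the WSD+beta-Glucan libraries and 713 over the WSD libraries. Tnf, a central inflammatory cytokine, averaged 0.549 ± 0.170 CPM in WSD+beta-Glucan and 1.16 ± 0.21 CPM in WSD (-1.08 ± 0.30, edgeR adjusted p = 0.102). Il1b, another, averaged 2.08 ± 0.46 CPM in WSD+beta-Glucan and 3.54 ± 1.07 CPM in WSD (adjusted p = 0.534), and Tgfb1, the main fibrogenic cytokine, 9.89 ± 2.02 CPM in WSD+beta-Glucan and 15.9 ± 1.59 CPM in WSD (adjusted p = 0.0884). DESeq2 called 9 of the 30 lower and 1 higher, against 342 and 94 of all 13594 genes.

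Genes for sensing microbial products and beta-glucan, not all of them receptors, had 1 of 43 members lower and none higher, with a median of -0.55. That gene was Unc93b1, the chaperone that carries nucleic acid-sensing Toll-like receptors to endosomes, at 51.0, 43.2, 53.7 and 46.7 CPM in WSD+beta-Glucan and 72.7, 70.8, 66.5, 62.9 and 70.7 CPM in WSD. The groups were well apart although the change was only 1.41-fold (log2 fold change -0.50 ± 0.08, edgeR adjusted p = 0.0214). Clec7a, the gene of dectin-1 that binds beta-glucans, had 10.2, 10.9, 11.7 and 10.8 CPM in WSD+beta-Glucan and 15.4, 27.5, 21.0, 23.1 and 21.2 CPM in WSD, with no overlap but an edgeR adjusted p of 0.0775. Cd14, a co-receptor for bacterial lipopolysaccharide, averaged 7.47 ± 3.07 CPM in WSD+beta-Glucan and 16.6 ± 5.64 CPM in WSD (adjusted p = 0.0916), and Tlr4, its signalling partner, 1.06 ± 0.35 CPM in WSD+beta-Glucan and 1.59 ± 0.39 CPM in WSD (adjusted p = 0.368). Of the 43, DESeq2 called 11 lower, against 342 of all 13594 genes.

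Unc93b1 was also the only gene whose response to beta-glucan differed between diets in the edgeR test of the difference (0.00736% of tested genes). In mice on CTRL it was at 35.2, 38.4, 35.7, 33.4 and 32.3 CPM in CTRL+beta-Glucan and at 27.6, 25.0, 32.3, 31.2 and 30.2 CPM in CTRL. That effect was 0.26 ± 0.08 on the log2 scale (edgeR adjusted p = 0.805). The difference between both effects was -0.76 ± 0.12 on the log2 scale (edgeR adjusted p = 0.0366). DESeq2 called 139 genes for this difference, and the edgeR count was 81 without CTRL+beta-Glucan replicate 5 and 2 without CTRL replicate 3. It stayed at 1 without WSD+beta-Glucan replicate 3, WSD replicate 4 or CTRL+beta-Glucan replicate 2, and was 0 without any one of the other 14 libraries. For the other called genes no difference between diets passed. On CTRL none of the 53 had an adjusted p under 0.05, and of all 13594 tested genes 1 had (0.00736%).

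Egr2, an immediate early transcription factor that myeloid cells use, had 1.43, 1.104, 1.26 and 0.674 CPM in WSD+beta-Glucan and 2.95, 2.39, 3.20, 3.43 and 3.29 CPM in WSD (log2 fold change -1.46 ± 0.30, edgeR adjusted p = 0.0328). On CTRL it had 6 reads over the CTRL+beta-Glucan libraries and 1 over the CTRL libraries, too few to compare. It was 1 of 23 immediate early genes, of which none other passed and 22 had values below 0. The remaining lower genes are given by what each is known to do, an order that carries no test. Lgmn, a lysosomal protease, was at 83.4 ± 2.78 CPM in WSD+beta-Glucan and 149 ± 12.1 CPM in WSD (-0.84 ± 0.14, edgeR adjusted p = 0.0214). Abcg1, which exports cholesterol from macrophages, was at 13.3 ± 1.22 CPM in WSD+beta-Glucan and 24.9 ± 2.29 CPM in WSD (-0.91 ± 0.16, adjusted p = 0.0261), and Soat1, which esterifies cholesterol for storage, at 5.29 ± 0.67 CPM in WSD+beta-Glucan and 9.91 ± 1.03 CPM in WSD (-0.90 ± 0.17, adjusted p = 0.0261). These were the 2 genes that fell among 16 of sterol efflux, esterification and LXR, and the median of that list was 0.03, or -0.15 on TPM values, where the median of all tested genes was -0.14.

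None of the 41 genes of the lysosome list, which does not hold the genes of this paragraph or Lgmn, passed. Their median was -0.15, with 28 below 0 and 13 above, and DESeq2 called 5 lower, against 342 of all 13594 tested genes. Slc15a3, a lysosomal transporter of histidine and small peptides, had a log2 fold change of -1.15, Rab7b, a small GTPase of endosomal traffic, of -1.099, Tpcn2, a cation channel of lysosomes, of -0.72 and Pld3, a lysosomal nuclease, of -0.50. That of Cerk, the ceramide kinase, was -0.79. Of genes that act on the cytoskeleton or on small GTPases, Cotl1 was at -0.93 ± 0.19, Evl, an actin regulator of the Ena/VASP family, at -1.04 ± 0.19, Cyth4, an exchange factor for ARF GTPases, at -1.07 ± 0.22 and Arhgap9, a GTPase-activating protein, at -0.86 ± 0.16. Their adjusted p-values lay between 0.0261 and 0.0404. The libraries of both groups did not overlap for any of these genes.

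Ptafr, the receptor for platelet-activating factor, stood at 2.79 ± 0.58 CPM in WSD+beta-Glucan and 5.83 ± 0.58 CPM in WSD, and Gpr35, a G protein-coupled receptor, at 1.55 ± 0.24 CPM in WSD+beta-Glucan and 3.71 ± 0.40 CPM in WSD. Il10rb, the shared chain of the interleukin-10 receptor, was at 13.8 ± 1.31 CPM in WSD+beta-Glucan and 22 ± 2.20 CPM in WSD, and Cd83, a surface protein of activated antigen-presenting cells, at 3.36 ± 0.43 CPM in WSD+beta-Glucan and 6.56 ± 0.89 CPM in WSD. Dok2, an adaptor below tyrosine kinase receptors, Slc37a2, a sugar phosphate transporter of macrophages, Clec4b1, a C-type lectin, and Evi2a had log2 fold changes of -0.98, -1.02, -1.24 and -0.97. Pkm, the pyruvate kinase of non-hepatocyte cells, was at 33.9 ± 2.97 CPM in WSD+beta-Glucan and 64.4 ± 6.74 CPM in WSD, the only 1 of 29 genes of glucose metabolism that fell. The log2 fold changes of Fxyd5, Dmpk, Ppm1h, Tmem106a and Slfn5 lay between -0.91 and -0.62.

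Markers of other cell types in the liver were set beside these genes. Of 15 Kupffer cell markers none passed. Their median was -0.55 on the log2 scale, and their summed level was 644 to 870 CPM in WSD+beta-Glucan and 1007 to 1261 CPM in WSD. Their mean log2 CPM overlapped, at 4.31 to 4.97 in WSD+beta-Glucan and 4.37 to 5.21 in WSD. With edgeR on the 9 libraries alone 5 of the 15 were called lower, against 411 of all 13594 tested genes. Cd5l and the complement gene C1qc, both also made by other macrophages, stood at 151 ± 30.8 and 72.9 ± 8.45 CPM in WSD+beta-Glucan and at 303 ± 54.0 and 130 ± 8.78 CPM in WSD. Clec4f, the most specific Kupffer cell marker, was at 57.3 to 135 CPM in WSD+beta-Glucan and 71.9 to 163 CPM in WSD, and Timd4, a marker of long-resident Kupffer cells, at 1.26 to 5.27 CPM in WSD+beta-Glucan and 0.645 to 3.25 CPM in WSD. Cd163, a haemoglobin scavenger receptor named after its values were seen, was at 4.86 ± 3.07 CPM in WSD+beta-Glucan and 1.18 ± 1.67 CPM in WSD (2.03 ± 0.79, edgeR adjusted p = 0.233).

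Genes of MHC class II presentation, carried by macrophages, dendritic and B cells, had 0 of 10 past the threshold and a median of -0.80. H2-Aa, an MHC class II chain, was at 103 to 158 CPM in WSD+beta-Glucan and 163 to 268 CPM in WSD (edgeR adjusted p = 0.118). Dendritic cell markers (0 of 12) had a median of -0.42, neutrophil markers (0 of 7) of -0.52, T and NK cell markers (0 of 22) of -0.29 and B and plasma cell markers (0 of 12) of -0.22. Endothelial (0 of 27) and cholangiocyte markers (0 of 17) had medians of -0.19 and -0.17. The cholangiocyte mean log2 CPM was 2.18 and 1.91 in WSD+beta-Glucan replicates 1 and 4, and 4.04 and 3.72 in replicates 2 and 3. In WSD it ranged from 2.398 to 4.115. Cell cycle genes (0 of 35) had a median of -0.38, with Mki67, a gene of dividing cells, at 4.38 ± 0.56 CPM in WSD+beta-Glucan and 7.11 ± 1.40 CPM in WSD. Over these lists and the Kupffer cell list DESeq2 called 3 of 10 MHC class II and 3 of 12 dendritic cell genes lower. It also called 2 of 17 cholangiocyte and 3 of 35 cell cycle genes lower, against 342 of all 13594 tested genes. The part of these cells in the results on macrophage genes was not tested.

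Collagens and stellate cell genes were tested as the fibrosis side of the disease. None of 21 collagen genes passed, and the median was -0.58. None was free of overlap, where 4.83% of all tested genes had every WSD+beta-Glucan library below every WSD library. An unadjusted p under 0.05 in the lower direction was found for 9 of the 21, against 7.89% of all tested genes. DESeq2 called 2 of them lower, against 342 of all 13594 tested genes. Col1a1, the main chain of fibrillar collagen, had 27.2, 50.2, 84.4 and 28.3 CPM in WSD+beta-Glucan and 139, 94.2, 77.4, 62.3 and 167 CPM in WSD, and the group of 4 split as it did for Gpnmb (-1.18 ± 0.40, edgeR adjusted p = 0.181). Stellate cell markers (0 of 21) had a median of -0.05. Acta2, the actin of activated stellate and smooth muscle cells, stood at 56.0 CPM in WSD+beta-Glucan replicate 2 and at 0.926 to 4.45 CPM in the other 3, against 1.97 to 5.28 CPM in WSD. The cardiac troponin gene Tnnt2, from a list of genes foreign to liver, was also highest in that replicate, at 6.12 CPM, against at most 0.303 CPM in the other 3 and 0.0413 to 0.415 CPM in WSD. That list of 21 genes summed to 281 to 913 CPM in WSD+beta-Glucan and 202 to 970 CPM in WSD, with 4 genes at 0 counts in WSD+beta-Glucan and 7 in WSD, and its part in the value of Acta2 was not tested. Without replicate 2 the log2 fold change of Acta2 was -0.89, against 1.93 with it.

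**Figure D4:**
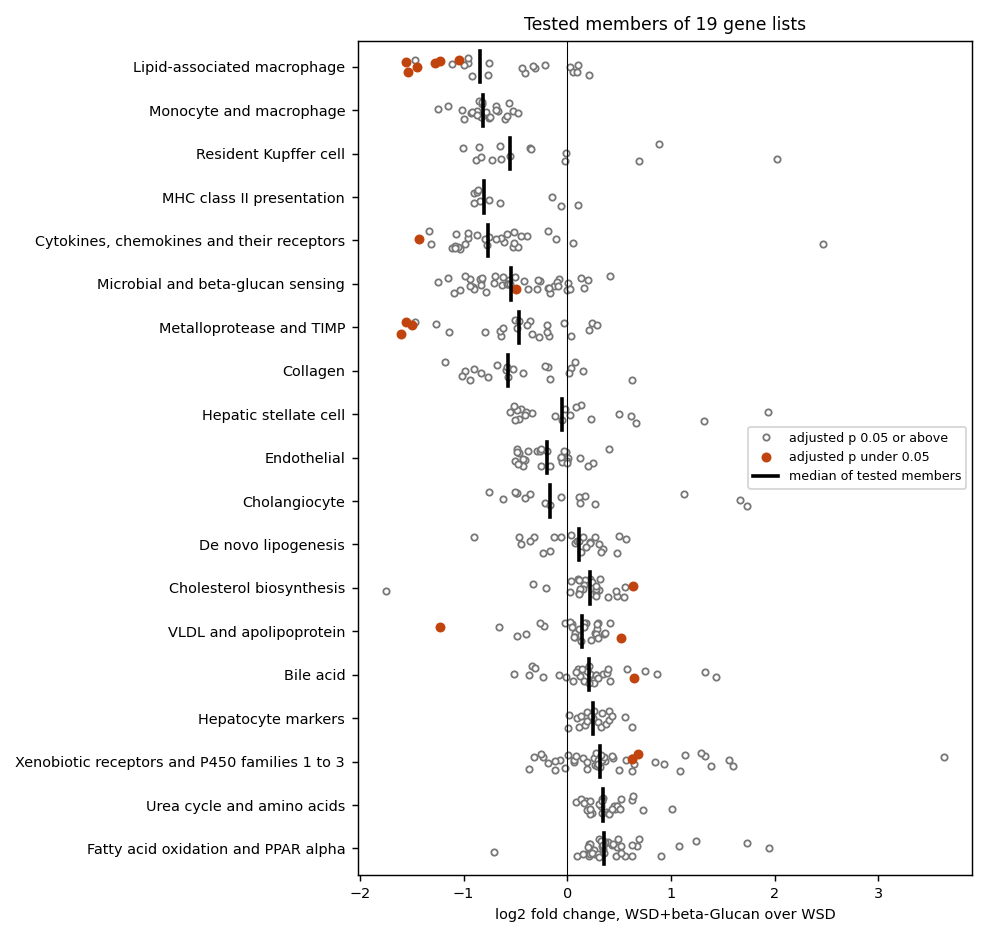
Log2 fold change of WSD+beta-Glucan over WSD (horizontal axis) for every tested member of 19 gene lists, with the median as a black bar and genes at an adjusted p under 0.05 filled. The medians run from -0.84 for lipid-associated macrophage genes to 0.36 for fatty acid oxidation genes.

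On the hepatocyte side, Prlr (ENSMUSG00000005268), the receptor for prolactin, rose by more than the other genes that passed, apart from Jph1 and Gm10146, which had few reads. It stood at 62.5, 38.6, 32.3 and 61.2 CPM in WSD+beta-Glucan, against 14.01, 26.0, 27.0, 24.3 and 18.9 CPM in WSD. Again replicates 1 and 4 were the farthest from WSD. The change was 2.20-fold (log2 fold change 1.14 ± 0.24, edgeR adjusted p = 0.0476), and it passed in 12 of the 29 other settings. CTRL+beta-Glucan and CTRL livers held 61.4 and 55.5 CPM on average.

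Nr1i3, the nuclear receptor CAR that drives drug-metabolizing enzymes, was at 341, 245, 246 and 308 CPM in WSD+beta-Glucan and 140, 176, 204.6, 222 and 145 CPM in WSD (log2 fold change 0.68 ± 0.13, edgeR adjusted p = 0.0276). Cyp2c38, a P450 enzyme of family 2, was at 104, 78.7, 84.5 and 103 CPM in WSD+beta-Glucan and 53.7, 64.9, 50.5, 70.7 and 60.5 CPM in WSD (0.62 ± 0.12, edgeR adjusted p = 0.0289). These were the 2 genes that rose among 46 xenobiotic receptors and P450 genes, of which 37 had values above 0, and the median was 0.32 on the log2 scale. Cyp2c37, a related P450 gene, averaged 215 ± 85.6 CPM in WSD+beta-Glucan and 73.2 ± 34.7 CPM in WSD, with overlap and an edgeR adjusted p of 0.0603. Cyp2b10, a textbook target of CAR, was low in both groups, at 1.98 ± 1.18 CPM in WSD+beta-Glucan and 2.31 ± 1.52 CPM in WSD (adjusted p = 0.903). DESeq2 called 8 of the 46 higher, against 94 of all 13594 genes.

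Slc10a1, the NTCP transporter that takes up bile acids from blood, was at 344, 276, 251 and 376 CPM in WSD+beta-Glucan and 166, 197, 224, 253 and 154 CPM in WSD. It was the 1 called gene whose groups overlapped, by WSD+beta-Glucan replicate 3 against WSD replicate 4 (log2 fold change 0.65 ± 0.14, edgeR adjusted p = 0.0475). It was also the only 1 of 34 bile acid genes that rose, and the median of the list was 0.21. Cyp7a1, which starts the classical route from cholesterol to bile acids, ranged from 35.0 to 145 CPM in WSD+beta-Glucan and from 11.1 to 85.5 CPM in WSD (edgeR adjusted p = 0.678), and Cyp8b1, which sets the share of cholic acid, from 317 to 1150 CPM in WSD+beta-Glucan and from 174 to 529 CPM in WSD (adjusted p = 0.234). Sult2a8, a bile acid sulfotransferase of mouse, had 188, 214, 131 and 264 CPM in WSD+beta-Glucan and 53.7, 56.7, 122, 127 and 35.5 CPM in WSD, with no overlap and an edgeR adjusted p of 0.0634. The receptor FXR (Nr1h4), its target SHP (Nr0b2) and the bile salt exporter Abcb11 had log2 fold changes of 0.06, -0.34 and 0.10. None of them passed. On TPM values, where the median of all tested genes was -0.14, Nr1h4 and Abcb11 were at -0.08 and -0.18.

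Among lipoprotein and sterol genes, Tm6sf2, which helps load lipid onto very low density lipoproteins, averaged 29.0 ± 3.38 CPM in WSD+beta-Glucan and 20.3 ± 1.98 CPM in WSD (0.52 ± 0.10, edgeR adjusted p = 0.0261). In the list of 29 genes of apolipoproteins and lipoprotein handling it was the 1 gene that rose, Lpl the 1 that fell, and the median was 0.14. On TPM values the median of the list was -0.03, where that of all tested genes was -0.14. Lcat, which esterifies cholesterol on plasma lipoproteins, was at 427 ± 49.5 CPM in WSD+beta-Glucan and 321 ± 32.2 CPM in WSD without overlap (adjusted p = 0.0717). Tm7sf2, a sterol reductase, was at 32.4, 29.8, 30.4 and 44.0 CPM in WSD+beta-Glucan and 18.3, 22.5, 24.9, 24.6 and 19.96 CPM in WSD (0.63 ± 0.12, edgeR adjusted p = 0.0276). It was the only 1 of 29 cholesterol biosynthesis genes to rise. Sqle, an oxygenase of the same pathway, was at 1.13 ± 0.63 CPM in WSD+beta-Glucan and 0.778 ± 0.555 CPM in WSD.

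The remaining genes that rose belong to no list. Pmm1, a phosphomannomutase of mannose metabolism, was at 7.79, 7.39, 9.0 and 12.4 CPM in WSD+beta-Glucan and 4.98, 4.67, 5.84, 6.04 and 5.29 CPM in WSD (0.77 ± 0.14, edgeR adjusted p = 0.0261). Gabbr2, a subunit of the GABA-B receptor, was at 18.5, 16.9, 15.1 and 16.04 CPM in WSD+beta-Glucan and 9.91, 11.6, 10.2, 10.6 and 10.8 CPM in WSD (0.64 ± 0.13, edgeR adjusted p = 0.0345). Jph1, a junctophilin, had 41 reads over the 4 WSD+beta-Glucan libraries and 18 over the 5 WSD libraries, at 0.295 to 0.722 CPM in WSD+beta-Glucan and 0.137 to 0.173 CPM in WSD, so its log2 fold change of 1.53 ± 0.33 rests on few reads. Epb41l4b, a membrane-cytoskeleton linker, and Pllp, a membrane protein of epithelia and myelin, changed by 0.46 ± 0.09 and 0.42 ± 0.09. The twelfth, Gm10146, is a processed pseudogene named after its values were seen: it had 139 reads over the WSD+beta-Glucan libraries and 0 over the WSD libraries, at least 54.1-fold higher against a floor of 3 reads over the WSD group. Pseudogene reads may belong to the parent gene, and CTRL livers held 90 such reads.

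**Figure D5:**
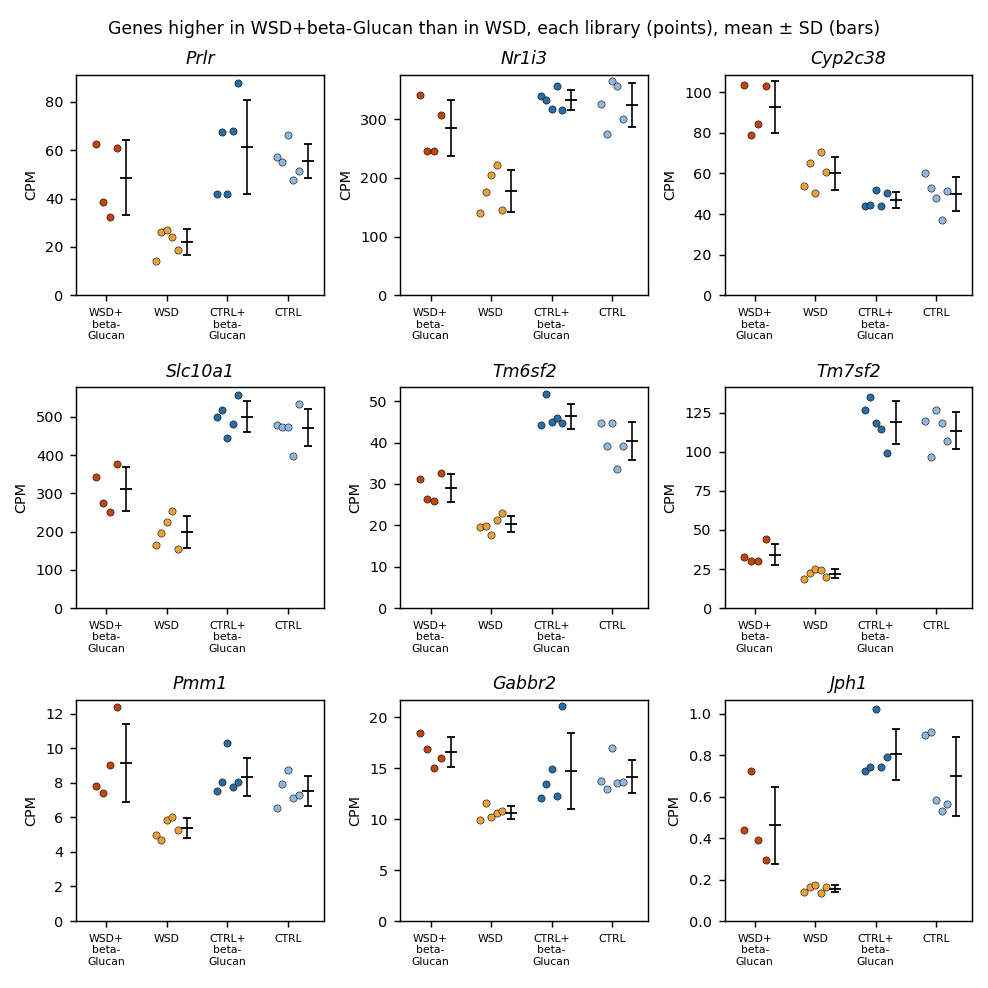
CPM of 9 genes that rose, in each library (points) with group mean ± SD (bars), in WSD+beta-Glucan, WSD, CTRL+beta-Glucan and CTRL from left to right, each panel on its own linear axis. The WSD+beta-Glucan points lie above all WSD points in every panel but that of Slc10a1, where 251 CPM in WSD+beta-Glucan replicate 3 is under 253 CPM in WSD replicate 4.

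Other hepatocyte pathways had most values above 0 and no gene past the threshold. Of 43 genes of fatty acid oxidation and PPAR alpha, 42 had log2 fold changes above 0 and the median was 0.36. An unadjusted p under 0.05 was found for 26 and no overlap for 18, against 7.69% and 2.59% of all tested genes in that direction. With edgeR 0 passed, and DESeq2 called 6 higher, against 94 of all 13594 tested genes. Cyp4a14, a fatty acid hydroxylase and PPAR alpha target, was at 922, 2189, 2000 and 2918 CPM in WSD+beta-Glucan and 250, 641, 681, 929 and 518 CPM in WSD (1.73 ± 0.45, edgeR adjusted p = 0.0884). Eci2, an isomerase of unsaturated fatty acid oxidation, was at 263 ± 15.9 CPM in WSD+beta-Glucan and 213 ± 11.8 CPM in WSD, the same adjusted p with a much smaller change (0.30 ± 0.08). Cpt1a, which admits fatty acids to mitochondria, averaged 562 ± 116 CPM in WSD+beta-Glucan and 400 ± 63.8 CPM in WSD, and Ppara itself 50.04 ± 14.2 CPM in WSD+beta-Glucan and 34.9 ± 7.56 CPM in WSD (adjusted p = 0.213 and 0.376). Fgf21, a fasting hormone of the liver, was the 1 member below 0, at 16.9 ± 10.5 CPM in WSD+beta-Glucan and 27.7 ± 8.88 CPM in WSD.

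All 29 genes of the urea cycle and amino acid breakdown had values above 0, with a median of 0.35 and 0 past the threshold. An unadjusted p under 0.05 was found for 14 of them, against 7.69% of all tested genes in that direction. Oat, which feeds ornithine into that cycle, was at 1842, 1564, 1334 and 2588 CPM in WSD+beta-Glucan and 599, 760, 1141, 1536 and 505 CPM in WSD (1.01 ± 0.28, edgeR adjusted p = 0.105). The 21 hepatocyte markers were also all above 0 with a median of 0.25 and 0 called, and Alb lay apart between groups (0.55 ± 0.15, edgeR adjusted p = 0.0884). Their summed level was 108800 to 148400 CPM in WSD+beta-Glucan and 88430 to 108800 CPM in WSD, so these markers moved with the pathways, and their part in them was not tested. The gluconeogenic genes Pck1 and G6pc stood at 1841 ± 204 and 223 ± 47.8 CPM in WSD+beta-Glucan and at 1143 ± 535 and 188 ± 28.03 CPM in WSD.

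No gene of fat synthesis or storage passed. Of 25 lipogenesis genes 0 passed, 16 lay above 0 and 9 below, and the median was 0.11. On TPM values, where the median of all tested genes was -0.14, that of the list was -0.04, or 0.10 above it. Of 24 genes of lipid droplets and PPAR gamma 17 lay above 0 and 7 below. At an unadjusted p under 0.05, 3 were higher and 0 lower, against 7.69% and 7.89% of all tested genes. Their median was 0.12, or -0.01 on TPM values, which was 0.13 above that of all tested genes. DESeq2 called 2 of the lipogenesis genes lower and none of the droplet genes, against 342 lower and 94 higher of all 13594 tested genes. Fasn, the fatty acid synthase, was at 140 ± 27.4 CPM in WSD+beta-Glucan and 179 ± 18.8 CPM in WSD, and Srebf1, the factor that drives it, at 101 ± 28.6 CPM in WSD+beta-Glucan and 138 ± 35.1 CPM in WSD (edgeR adjusted p = 0.368 and 0.246). Scd1, a desaturase and one of the most abundant transcripts, was at 13690 ± 3902 CPM in WSD+beta-Glucan and 12060 ± 2663 CPM in WSD. Cidec, a droplet fusion protein, was at 123 ± 31.2 CPM in WSD+beta-Glucan and 131 ± 23.3 CPM in WSD, and Pparg, the receptor that induces it, at 16.6 ± 1.68 CPM in WSD+beta-Glucan and 18.3 ± 2.48 CPM in WSD. The stress hormone Gdf15 averaged 18.8 ± 5.10 CPM in WSD+beta-Glucan and 33.8 ± 5.98 CPM in WSD without overlap (adjusted p = 0.124), and the acute phase gene Saa1 was at 190 ± 54.5 CPM in WSD+beta-Glucan and 397 ± 63.8 CPM in WSD, also without overlap (adjusted p = 0.716).

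Set beside the mice without WSD, the lower genes of WSD+beta-Glucan livers were still above CTRL in all but 1 case. The mean of WSD was above that of CTRL for all 41 lower genes, and the mean of WSD+beta-Glucan was above that of CTRL for 40 of them. Mmp12, for example, averaged 14.6 CPM in WSD+beta-Glucan, 42.9 CPM in WSD, 0.515 CPM in CTRL+beta-Glucan and 0.664 CPM in CTRL, and Lpl 75.9 CPM in WSD+beta-Glucan, 178 CPM in WSD and 11.1 CPM in both CTRL+beta-Glucan and CTRL. Of the 12 higher genes, 11 had a lower mean in WSD than in CTRL, and 8 remained below CTRL in WSD+beta-Glucan, such as Slc10a1 at 311 CPM in WSD+beta-Glucan, 199 CPM in WSD and 472 CPM in CTRL. Cyp2c38 was the exception, at 92.5 CPM in WSD+beta-Glucan, 60.1 CPM in WSD and 49.8 CPM in CTRL. Over all tested genes the median log2 fold change of WSD over CTRL was -0.04. At an edgeR adjusted p under 0.05, 26% of them were higher and 27.1% lower in WSD than in CTRL. Both comparisons share the WSD libraries, by which these genes were also picked, so values that lie between the other groups are described and not tested here.

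Transcript estimates gave the makeup of some of these genes, without a test. Lpl was almost all 1 transcript, Lpl-201, with 99.4% of the gene's TPM in WSD+beta-Glucan and 99.5% in WSD. Most Mmp12 signal, 86.5 ± 2.1% in WSD+beta-Glucan and 72.2 ± 17.6% in WSD, was assigned to Mmp12-204, which the annotation marks for nonsense-mediated decay. The coding Mmp12-203 was at 0 in all 4 WSD+beta-Glucan libraries and in 2 of 5 WSD libraries, and the coding Adam8-202 at 0 in all 4 WSD+beta-Glucan libraries and in 1 of 5 WSD libraries. Prlr-205 held 52.5 ± 6.2% of Prlr in WSD+beta-Glucan and 51.6 ± 5.5% in WSD, at 10.7 ± 3.7 TPM in WSD+beta-Glucan and 5.4 ± 1.6 TPM in WSD. Reads shared by transcripts of 1 gene are split by the estimator, and such shares are uncertain.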

How the data were processed

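Liver RNA of 19 libraries was used, 9 of them in the comparison. Liver RNA was isolated with PureLink reagents and sequenced as TruSeq Stranded mRNA libraries, per the labels' protocols. Reads were quantified with Salmon 1.10.1 on build GRCm39, per the submitters' processing notes, which also name DESeq2 1.38.3. The transcript set is not given in the sources used here. The deposited files give per transcript an estimated count of reads, a TPM and, as another unit, an effective length in bases, all made by the authors. Of 116546 transcripts 115977 (99.51%) matched GENCODE M21 by identifier, which gave symbols and no coordinates. Counts were summed to 35498 genes and rounded to whole numbers.

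In R 4.3.3, edgeR 4.0.16 (filterByExpr, TMM, robust quasi-likelihood F test) was fitted to all 19 libraries with a mean per group. The threshold was an adjusted p of 0.05 (Benjamini and Hochberg over 13594 genes). The SE is the log2 fold change divided by the square root of F. CPM use TMM-scaled library sizes, and log2 CPM a prior count of 2. The test was also checked on simulated data. Alternatives were other scaling, filters, DESeq2 1.42.0, limma-voom (limma 3.58.1), a length offset, a term for 3 libraries whose titles hold lower numbers than the rest (replicate 1 of WSD+beta-Glucan, and both 1 and 2 of CTRL+beta-Glucan; what the numbers mark is not given), and leaving out each library. Replicates are numbered in order of deposition and pair nothing. Counting error follows from the depth given, and the floor of 3 counts covers counting error only. Named are all called genes with an assigned symbol, the 8 lowest and 8 highest in full, up to 3 members of each of 45 lists by p, and 42 fixed genes, of which the text quotes a selection (others of the fixed set are not reported here). The members and lists were chosen with earlier results of these data known. Promoters are RefSeq entries of GRCm38.p6.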

Additional observations from a re-analysis of the deposited data

Results flagged for a closer look

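The effect of beta-glucan on Unc93b1 differed between diets (edgeR adjusted p = 0.0366), by -0.76 ± 0.12 on the log2 scale when the effect on CTRL was taken from that on WSD.

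Of 196 groups of libraries checked for a single library far from the rest, 9 had one by Dixon's 95% critical value, which chance alone passes in about 1 in 20. In WSD+beta-Glucan replicate 4, Ccl2 was low at 1.43 CPM (the next library 2.47), Ccr2 at 2.61 CPM (next 4.56) and Il10rb at 11.8 CPM (next 14.2), while Ppara was high at 71.2 CPM (next 45.1) and Cyp7a1 at 145 CPM (next 47.1). In WSD+beta-Glucan replicate 2, Acta2 was high at 56.0 CPM (next 4.45) and Tnnt2 at 6.12 CPM (next 0.303). In WSD, C1qc was high in replicate 5 at 145 CPM (next 128), and Cd36 was low in replicate 1 at 112 CPM (next 164).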

How the results depend on the processing

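Over the 29 other settings Mmp12 and Lpl passed throughout, while the other named called genes failed in 5 (Lgmn) to 19 (Gpnmb) of them. Against 12 higher and 41 lower genes, the counts were 94 and 342 with DESeq2, 61 and 366 with limma-voom, 46 and 411 when edgeR saw just the 9 libraries of both groups, and 79 and 179 with a term for the 3 libraries of low title numbers, WSD+beta-Glucan replicate 1 among them (258 in all, the 53 included). They were 7 and 29 with no filter on low counts and 9 and 26 with an effective length offset. Leaving out 1 library gave 0 to 33 higher and 2 to 151 lower genes. The number of genes called for the difference between both beta-glucan effects was 139 with DESeq2, 2 with the term for low title numbers, 2 without those 3 libraries (a setting chosen after seeing the data), and 0 to 81 with 1 library left out. Of lipid-associated macrophage genes 11 were lower with limma-voom, 10 with those 9 libraries, and 2 to 9 with 1 library left out. No cause of these shifts was tested.

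Signs turned for a few genes that had not passed. With 1 library left out, the log2 fold change of Acta2 ranged from -0.89 (without WSD+beta-Glucan replicate 2) to 2.33, Cidec from -0.28 to 0.0198, Nr1h4 from -0.0237 to 0.167 and Cyp2b10 from -0.62 to 0.162. Cidec was also at 0.387 with the term for low title numbers and at 0.0198 without those libraries, and Abcb11 at -0.0327 with the length offset. On deposited TPM Plin2 was at -0.0493, Abcb11 at -0.181 and Nr1h4 at -0.0836. The median of all tested genes on TPM was itself -0.138, and of these genes only Abcb11 lay below it. No paired analysis was possible because replicate numbers follow the order of deposition. Genes of few reads, such as Jph1 and Mmp13, are the least precise.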
